A study of Mus musculus with 36 samples.

Results

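H2AK119ub1 was set against H3K27me3 in the control (Ctrl) hippocampus of the newborn mouse, promoter by promoter. The members were the 20807 autosomal promoters of protein-coding genes, each taken as the 2 kb on either side of the annotated start site, out of 21951 promoters on all chromosomes. Each promoter was placed by the islands it held in 2 libraries of H2AK119ub1 and 2 libraries of H3K27me3. An island is a stretch in which the peak caller SICER found more chromatin immunoprecipitation (ChIP-seq) reads than in input DNA. Promoters with islands in all 4 libraries numbered 699, or 3.36% of the 20807. Another 589 (2.83%) had islands in both H3K27me3 libraries and in neither H2AK119ub1 library, and 231 (1.11%) had the opposite pattern. No library had an island at 14929 promoters (71.7%), and the remaining 4359 were called in 1 of the 2 libraries of at least 1 mark.

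The study asked how the CxxC zinc finger of KDM2B acts on Polycomb marks in the developing hippocampus. The Ctrl mice carried the genotype Kdm2bfl/+ or Kdm2bfl/fl, that is 1 or 2 floxed Kdm2b alleles with no Cre named, and were taken at P0, the day of birth. Other groups, used below only beside the Ctrl hippocampus, were hippocampi of conditional knockout mice (cKO, Kdm2bEmx1-delta-CxxC), in which Emx1-Cre removes the exon encoding the CxxC zinc finger in the dorsal telencephalic lineage, and neurospheres, which are cultures of hippocampal progenitors from P0 mice. A hippocampus holds neurons, progenitors, glia and vascular cells, so a mark in every cell and a mark in some cells cannot be told apart. Nothing in the sources used here says how many animals made up a library or that the replicates came from separate animals, so p-values measure only the spread between these libraries.

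Polycomb repressive complexes hold developmental genes silent. PRC1 attaches 1 ubiquitin to a lysine of histone H2A (H2AK119ub1), and PRC2 trimethylates a lysine of histone H3 (H3K27me3). Each complex can be recruited by the mark of the other, and both favour unmethylated CpG-dense promoters, to which KDM2B brings a variant form of PRC1. In neural progenitors the targets include genes for transcription factors of other lineages and signalling molecules.

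Sequences of the groups differed in CpG content, which is shown here by the 250 bases upstream of 7 start sites, chosen after their values were seen. They were read from the mm10 genome on the strand of the gene, 5′ to 3′, with CpG dinucleotides in capitals. Hoxa13 (chr6:52260881-52261130, minus strand) and Pax6 (chr2:105668650-105668899, plus strand) had both marks. Zfp978 (chr4:147361053-147361302, plus strand) and Urad (chr5:147322441-147322690, minus strand) had H3K27me3 only. Pkdcc (chr17:83215042-83215291, plus strand) and Emx1 (chr6:85187188-85187437, plus strand) had H2AK119ub1 only, and Map2 (chr1:66175023-66175272, plus strand), a neuronal microtubule gene, had no island.
Hoxa13: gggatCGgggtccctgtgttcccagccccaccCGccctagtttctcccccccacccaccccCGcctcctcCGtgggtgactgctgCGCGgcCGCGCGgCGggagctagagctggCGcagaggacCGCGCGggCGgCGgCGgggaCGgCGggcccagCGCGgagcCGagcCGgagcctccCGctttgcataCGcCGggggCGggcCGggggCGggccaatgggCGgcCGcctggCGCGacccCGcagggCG
Pax6: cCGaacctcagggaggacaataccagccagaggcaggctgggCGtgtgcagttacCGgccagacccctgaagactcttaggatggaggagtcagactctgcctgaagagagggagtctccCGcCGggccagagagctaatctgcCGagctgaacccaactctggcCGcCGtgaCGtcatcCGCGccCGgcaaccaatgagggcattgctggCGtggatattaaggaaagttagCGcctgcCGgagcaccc
Zfp978: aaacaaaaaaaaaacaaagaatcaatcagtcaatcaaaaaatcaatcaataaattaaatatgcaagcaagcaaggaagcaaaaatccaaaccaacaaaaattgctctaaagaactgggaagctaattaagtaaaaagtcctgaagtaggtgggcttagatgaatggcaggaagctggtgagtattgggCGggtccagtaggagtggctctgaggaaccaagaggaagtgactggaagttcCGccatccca
Urad: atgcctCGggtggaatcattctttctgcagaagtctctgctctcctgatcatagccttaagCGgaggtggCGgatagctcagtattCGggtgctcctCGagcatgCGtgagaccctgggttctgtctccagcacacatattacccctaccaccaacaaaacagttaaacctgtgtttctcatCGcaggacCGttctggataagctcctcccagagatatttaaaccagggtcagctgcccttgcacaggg
Pkdcc: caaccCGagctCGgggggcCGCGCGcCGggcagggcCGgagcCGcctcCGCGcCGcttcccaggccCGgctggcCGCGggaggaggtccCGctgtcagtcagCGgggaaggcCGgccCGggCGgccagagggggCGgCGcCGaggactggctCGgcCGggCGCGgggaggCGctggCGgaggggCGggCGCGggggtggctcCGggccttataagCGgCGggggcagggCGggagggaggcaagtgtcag
Emx1: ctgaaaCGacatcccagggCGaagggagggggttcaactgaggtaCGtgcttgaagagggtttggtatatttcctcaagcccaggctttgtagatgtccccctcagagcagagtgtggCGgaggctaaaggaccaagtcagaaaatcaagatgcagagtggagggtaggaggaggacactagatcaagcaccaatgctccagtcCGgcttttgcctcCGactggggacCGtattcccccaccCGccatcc
Map2: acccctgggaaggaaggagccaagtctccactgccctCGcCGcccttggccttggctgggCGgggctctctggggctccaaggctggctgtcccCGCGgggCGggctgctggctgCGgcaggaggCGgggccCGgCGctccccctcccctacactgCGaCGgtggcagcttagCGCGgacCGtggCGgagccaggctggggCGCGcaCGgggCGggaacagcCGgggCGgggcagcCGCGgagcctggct
The printed stretch held 35 CpG at Hoxa13 and at Pkdcc, 24 at Map2, 15 at Pax6, 8 at Urad and Emx1, and 2 at Zfp978. Over whole groups the median was 14 with both marks, 13 with H2AK119ub1 only, 8 with H3K27me3 only and 8 with no island. High CpG content was thus found with and without the marks, as Map2 shows.

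The 4 libraries differed in how much was called. H2AK119ub1 replicate 1 had 17032 islands covering 44.9 Mb of the autosomes, against 26404 islands and 157 Mb in replicate 2. H3K27me3 replicate 1 had 22281 islands covering 123.3 Mb, against 12116 islands and 54.6 Mb in replicate 2. Reads inside islands ranged 4.36-fold, from 996663 to 4345082 counts, and they move with the called length, so they are not a measure of sequencing depth. The study's methods give a nominal depth common to all libraries, and the depth of each is not given in the sources used here. Promoters with an island numbered 1318 and 3756 for H2AK119ub1 and 3593 and 2690 for H3K27me3. H2AK119ub1 replicate 1 had the fewest called promoters of the 4 and therefore sets the size of the groups that require H2AK119ub1. Without it, 1657 promoters had both marks and 1684 had H2AK119ub1 only. Without H2AK119ub1 replicate 2, 1547 had H3K27me3 only and 430 had H2AK119ub1 only, and without H3K27me3 replicate 2, 1578 had H3K27me3 only.

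One measure separated the marks in all 4 libraries, the CpG-rich share of the promoters that were called. As CpG-rich were counted the 9506 promoters (45.7%) whose central 1 kb exceeded 50% GC and held CpG at over 0.6 of the frequency that its base composition predicts. CpG-rich promoters made up 57.2% and 55.1% of those called in the H2AK119ub1 libraries and 46.8% and 50.4% of those called in the H3K27me3 libraries. The means were 56.1% ± 1.5 and 48.6% ± 2.61 (SD, n = 2 each), with no overlap. The difference of 7.54 percentage points had p = 0.333 by an exact two-sided permutation test over libraries, the smallest p that 2 against 2 can give. Other measures overlapped between marks. The median width of the widest island at a called promoter was 2.8 and 5.8 kb for H2AK119ub1 and 6 and 4.6 kb for H3K27me3 (exact permutation p = 0.667). The start site itself lay inside an island at 34.7% and 69.9% of called promoters for H2AK119ub1 and at 62.6% and 68.9% for H3K27me3 (exact permutation p = 1).

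Sharing of the marks was counted from either side. Of the 1027 promoters with H2AK119ub1 in both libraries, 699 (68.1%) had H3K27me3 in both libraries, 97 (9.44%) in 1, and 231 (22.5%) in neither. Of the 2288 promoters with H3K27me3 in both libraries, 699 (30.6%) had H2AK119ub1 in both, 1000 (43.7%) in 1, and 589 (25.7%) in neither. The larger share on the H2AK119ub1 side went with the low yield of H2AK119ub1 replicate 1. Without it, 1657 promoters had both marks, 1684 had H2AK119ub1 only and 631 had H3K27me3 only. Between the replicate 2 libraries, 47.8% of the H2AK119ub1 promoters had H3K27me3 and 66.7% of the H3K27me3 promoters had H2AK119ub1. Agreement within a mark also limits these shares. Of the promoters called in H2AK119ub1 replicate 1, 77.9% were also called in replicate 2, but the reverse share was 27.3%. For H3K27me3 the shares were 63.7% from replicate 1 and 85.1% from replicate 2. In covered bases, the Jaccard index (shared bases over bases in either library) was 0.124 between the H2AK119ub1 libraries and 0.283 between the H3K27me3 libraries, and between marks it ran from 0.0935 to 0.178. By this index some pairs of different marks overlapped more than the H2AK119ub1 replicates, but unequal covered lengths limit the index. Shared bases were also divided by those that the covered shares of the autosomes predict. This gave 7.58-fold between the H2AK119ub1 replicates and 5.24- to 9.14-fold between marks. Only H2AK119ub1 replicate 1 with H3K27me3 replicate 2 exceeded the H2AK119ub1 replicates among pairs of different marks.

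Named promoters with both marks were ranked by relative density, the counts per kb of their islands divided by the median over all autosomal islands of that library, taking the lowest library. The first 8 were Fcgr3, Nkx2-3, Cbx8, Hoxa13, Sim2, Dbx1, Mnx1 and Lhx5. Nkx2-3, Dbx1, Mnx1 and Lhx5 encode homeodomain factors, of which Mnx1 acts in motor neurons, and Sim2 encodes a bHLH-PAS factor. Hoxa13, the last gene of the HoxA cluster and a factor of the distal limb, lay in islands of 2.8 and 28.4 kb for H2AK119ub1 and 198 and 132.8 kb for H3K27me3. Those islands held 130 and 1197 counts for H2AK119ub1 and 13855 and 9108 for H3K27me3. Its H3K27me3 islands were longer than its H2AK119ub1 islands in every pairing of libraries. Fcgr3, an Fc receptor of myeloid cells, differed from it in that the islands were of similar length, 23.8 and 24.8 kb for H2AK119ub1 and 30 and 23.2 kb for H3K27me3. The relative density at Fcgr3 was 2.66 and 4.14 for H2AK119ub1 and 5.44 and 8.08 for H3K27me3. Cbx8 encodes a chromodomain subunit of PRC1 itself. Its islands covered only 19.2% of the promoter in each H2AK119ub1 library, and 34.2% and 44.2% in the H3K27me3 libraries.

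The first 8 promoters with H3K27me3 only, by the same ranking, were Sspn, Zfp981, Urad, Zfp978, Sprr2a3, Zfp979, Rex2 and Zfp991. Zfp978, Zfp979, Zfp981 and Zfp991 are KRAB-type zinc finger genes of one cluster on chromosome 4, and Sprr2a3 encodes a protein of the cornified skin envelope. At Zfp978 the widest H3K27me3 islands were 77.6 and 40 kb, with no H2AK119ub1 island in either library. Urad, a gene of uric acid breakdown, lay in H3K27me3 islands of 87.8 and 65.6 kb that also reached the developmental genes Pdx1 and Cdx2. Pdx1 and Cdx2 had both marks, so at this place the H3K27me3 island extended past the H2AK119ub1 islands over a neighbouring gene. Sspn, a dystrophin-complex gene of muscle, ranked first on density alone, with islands of just 0.4 and 1 kb. Of the 385 Zfp genes, 23 (5.97%) had H3K27me3 only, against 2.83% of all promoters. Among the rest, 1 (Zfp385a) had both marks, 2 (Zfp853 and Zfp423) had H2AK119ub1 only and 316 had no island. Across 10 settings of the calls, Zfp promoters with H3K27me3 only numbered 15 to 47.

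The zinc finger cluster of chromosome 4 held 11 of those 23 Zfp promoters within chr4:145670685-147642513. That run has 17 promoters, of which 12 had H3K27me3 only (11 Zfp genes and Rex2), 3 had no island (Zfp987, Gm21411 and Zfp989) and 2 were mixed (Gm16503 and Zfp985). The H3K27me3 libraries had an island at 13 and 13 of the 17 promoters and the H2AK119ub1 libraries at 0 and 0. These genes are close copies. At 10 of the 23 Zfp promoters (43.5%), at least 50% of the 31-base words in the upstream stretch also occurred at another promoter, against 3.86% of all promoters. How reads were placed among copies is not given in the sources used here, so values of single copies are uncertain. Olfactory receptor genes, also in tandem clusters, had 998 of 1087 promoters with no island. Another 10 (0.920%) had H3K27me3 only, against 2.83% of all promoters. The H3K27me3 libraries called 76 and 23 of the 1087 (6.99% and 2.12%), against 17.3% and 12.9% of all promoters. The H2AK119ub1 libraries called 0 and 0. H3K27me3 was thus called less often at these genes than at promoters at large. Keratin genes, the filament genes of epithelia, had H3K27me3 only at 6 of 49 promoters (12.2%), namely Krt28, Krt12, Krt7, Krt1, Krt77 and Krt18.

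Promoters with H2AK119ub1 only were led by Pkdcc, Gpr153, C8a, Atoh8, Ddah1, Flrt2, Magi1 and St6galnac5. Pkdcc encodes a secreted tyrosine kinase, Gpr153 an orphan receptor, Atoh8 a bHLH factor, Flrt2 an adhesion molecule that binds guidance receptors, and Magi1 a junctional scaffold. Pkdcc had islands of 1.8 and 13.6 kb with 56 and 577 counts. Gpr153 had islands of 1.4 and 26.2 kb that covered 34.2% and 100% of its promoter. Atoh8 had islands of 1.6 and 15 kb over 29.4% and 100% of the promoter. In each of these the island of replicate 2 was several times as wide as that of replicate 1, and no H3K27me3 island reached the promoter. Emx1, the dorsal telencephalic homeobox gene whose regulatory sequences drive the Cre of the cKO mice, belonged here, with islands of 2.8 and 8.8 kb holding 67 and 489 counts.

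**Figure D1:**
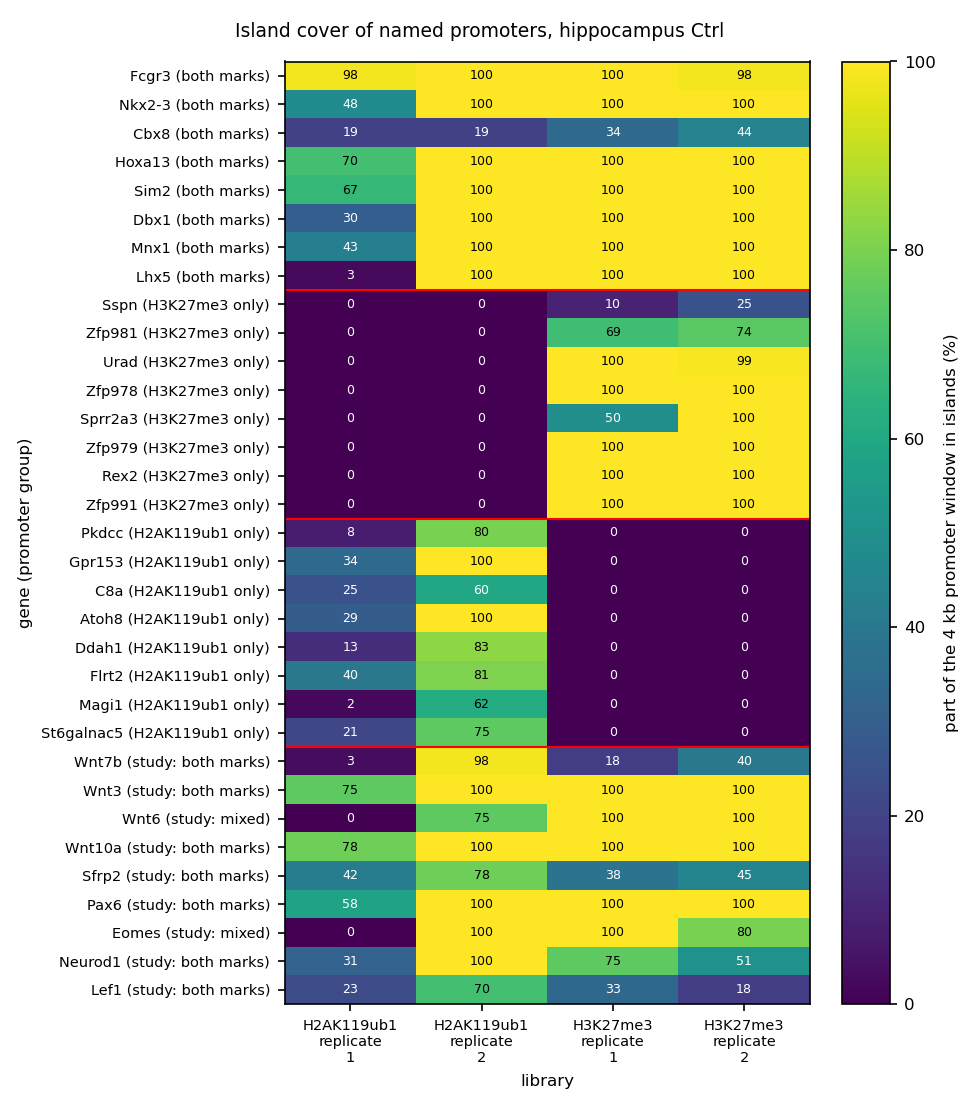
Part of the 4 kb promoter window inside islands, in percent (colour and printed value), for named genes (rows) in the 4 Ctrl hippocampus libraries (columns). Red lines part the 3 groups and the promoters that the study describes. Zeros at single-mark genes follow from how the groups were formed. Among the 8 leading promoters with both marks, cover in H2AK119ub1 replicate 1 runs from 2.55% at Lhx5 to 98.4% at Fcgr3.

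Gene classes were spread unevenly over the groups, and these counts are descriptions with no test, to be read against 3.36% with both marks, 2.83% with H3K27me3 only, 1.11% with H2AK119ub1 only and 71.7% with no island among all promoters. Of 39 Hox genes, which set position along the body axis, 38 had both marks. Of 132 other homeobox genes, 93 had both marks and 7 had no island, among them Crx, a photoreceptor factor. H3K27me3 alone marked Noto, Meox2, Hesx1 and Pou5f1, and H2AK119ub1 alone marked Emx1 and Nkx6-3. Of 15 T-box genes, 8 had both marks, including T, Tbx5 and Tbx20, which act in mesoderm and heart. Of 41 forkhead genes, 16 had both marks and 11 none. Of 50 bHLH genes, 17 had both marks, including the neurogenic factors Neurod1, Neurog1 and Atoh1, the oligodendrocyte factors Olig1 and Olig2 and the mesodermal factors Hand1 and Twist1. Factor families together made up 179 (25.6%) of the promoters with both marks, 7 (1.19%) of those with H3K27me3 only, 5 (2.16%) of those with H2AK119ub1 only and 33 (0.221%) of those with no island, against 1.44% of all promoters. Across 10 settings of the calls, Hox genes with both marks numbered 38 to 39 and other homeobox genes 80 to 113.

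Housekeeping genes lay at the other end. Of 79 ribosomal protein genes 73 had no island, as did 33 of 38 proteasome genes, although 67 of the ribosomal promoters were CpG-rich. Clustered protocadherins, adhesion genes of neurons, had no island at 55 of 57 promoters. Genes of the Polycomb machinery itself had no island at 23 of 38 promoters (60.5%), a smaller share than the 71.7% of all promoters, and these included Ezh2, Eed, Suz12, Rnf2, Ring1 and Kdm2b. Epop and Cbx8 had both marks and Bmi1 had H3K27me3 only. The cell cycle inhibitors Cdkn2a and Cdkn1a, well known Polycomb targets, had both marks, while Cdkn2c, Cdkn1b and Cdkn2d had no island.

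**Figure D2:**
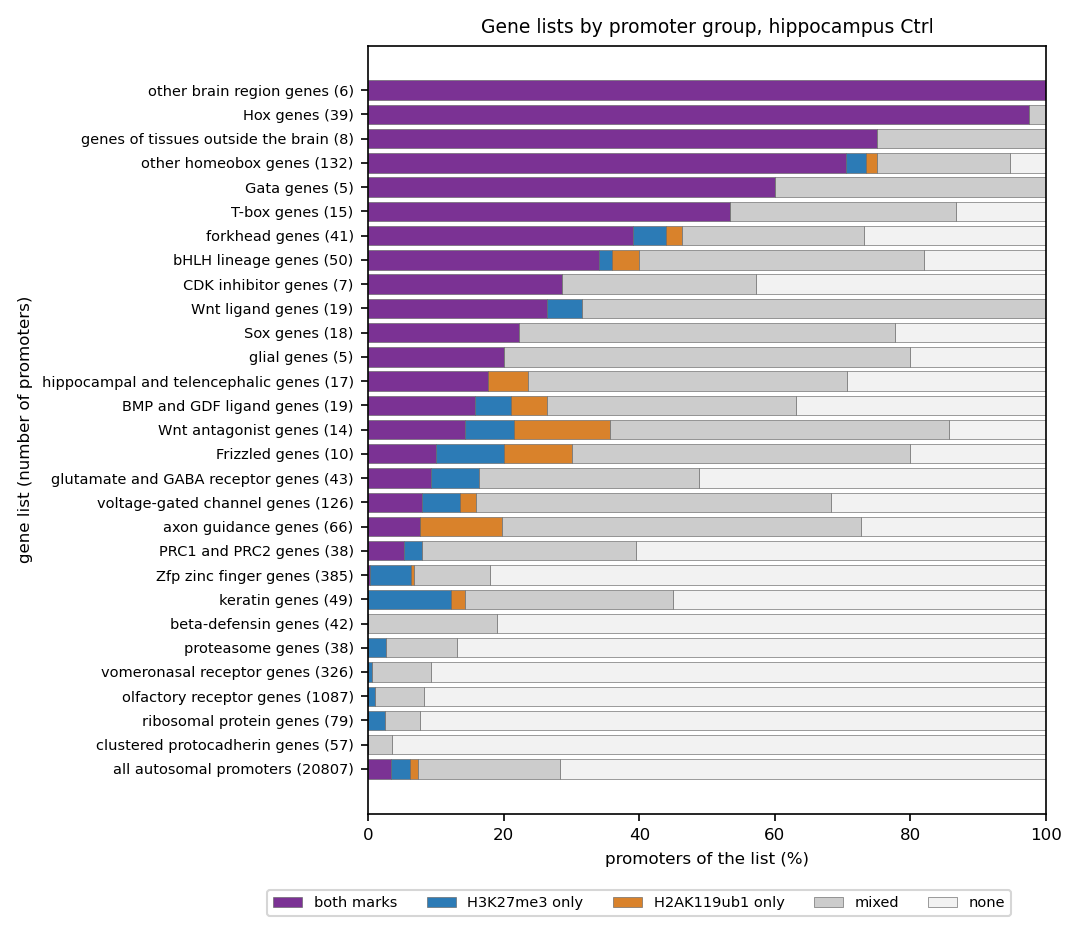
Share of promoters (x axis, percent) of each gene list (rows) in each promoter group (colours), with all 20807 promoters beside them. The highest shares with both marks are at genes of other brain regions, Hox genes, genes of tissues outside the brain, other homeobox, Gata and T-box genes. Lists with high shares with no island include protocadherin, ribosomal, olfactory receptor and proteasome genes.

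Axon guidance genes steer growing axons to their targets. Of 66 guidance genes, 8 (12.1%) had H2AK119ub1 only, against 1.11% of all promoters, and 0 had H3K27me3 only. The 8 were the receptors Ephb2, Ephb1, Epha3, Plxna4, Plxnc1 and Robo2 and the ligands Sema4d and Ntn3. Both marks lay at Efna3, Sema3f, Ntn4, Sema5b and Slit1. Counting an island in either library, 26 (39.4%) had H2AK119ub1 with no H3K27me3, against 9.05% of all promoters, and 1 (1.52%) had the reverse, against 8.80%. In 18 of those 26 the call came from 1 H2AK119ub1 library. By the same count, 24 of 126 voltage-gated channel genes (19.0%), which carry the currents of neurons, had H2AK119ub1 and no H3K27me3. In 21 of those 24 the call came from 1 H2AK119ub1 library. Both marks lay at 49 (38.9%), against 10.4% of all promoters by this count. Another 13 (10.3%) had H3K27me3 and no H2AK119ub1, against 8.80%. Among them Kcna1 and Kcnh5 had H3K27me3 in both libraries and no H2AK119ub1. Glutamate and GABA receptor genes had no island at 22 of 43, both marks at Gabbr2, Grik3, Grm6 and Grm4, and H3K27me3 only at genes that included Grin1 and Grin3a.

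Genes of the tissue itself were compared with genes of other tissues. Both marks are repressive and do not measure expression, so these lists show only where the marks lay. Of 17 hippocampal and telencephalic genes, 3 had both marks, among them Prox1 and Pax6, Emx1 had H2AK119ub1 only, and 5 had no island, among them Zbtb20, Neurod6, Map2 and Stmn2. Emx2, Lhx2, Sox2, Tubb3 and Gap43 had an island in H2AK119ub1 replicate 2 alone, and Neurod2, Tbr1 and Bcl11b had one there and in both H3K27me3 libraries. With an island in either library, 6 of the 17 (35.3%) had H2AK119ub1 without H3K27me3, against 9.05% of all promoters. In 5 of those 6 the call came from 1 H2AK119ub1 library. By this count 0 had the reverse, against 8.80% of all promoters. Another 6 (35.3%) had both marks, against 10.4% of all promoters. Genes of other brain regions, such as En1, En2, Nkx2-1, Gbx2 and Lmx1b, had both marks at 6 of 6 promoters. Genes of tissues outside the brain had both marks at 6 of 8, with Myod1 and Hnf4a mixed. Of 18 Sox genes, Sox6, Sox1, Sox14 and Sox7 had both marks, and Sox2, Sox9, Sox11, Sox8 and Sox13 had an island in H2AK119ub1 replicate 2 alone. Of glial genes, Olig2 had both marks, Aqp4 none, and Sox10, Gfap and Mbp were mixed.

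Wnt pathway genes, which the study examined, were mostly mixed. Of 19 Wnt ligands, 5 had both marks (Wnt10a, Wnt16, Wnt11, Wnt3 and Wnt7b), Wnt8a had H3K27me3 only and 13 were mixed. In 10 of those 13, H3K27me3 was called in both libraries and H2AK119ub1 in replicate 2. Wnt3 had islands of 2.8 and 13.8 kb for H2AK119ub1 and 17.4 and 12.6 kb for H3K27me3. Wnt6 had no island in H2AK119ub1 replicate 1, one of 9.4 kb in replicate 2, and islands of 46 and 34.6 kb for H3K27me3. Wnt7b had islands of 3.8 and 11.4 kb for H2AK119ub1, and narrower ones of 3.6 and 1.6 kb for H3K27me3. Its island in H2AK119ub1 replicate 1 covered only 3.2% of the promoter. The nearest base of that island lay 1873 bp from the start site, outside the 1 kb window used as an alternative. The ligands thus differed in which mark had the wider islands. Receptors were divided, with both marks at Fzd10, H3K27me3 only at Fzd6, H2AK119ub1 only at Fzd9 and no island at Fzd7 and Fzd3. Among secreted antagonists, Sfrp1 and Sfrp2 had both marks, Frzb and Dkk3 had H2AK119ub1 only and Dkkl1 had H3K27me3 only. Sfrp2 had islands of 5 and 6 kb for H2AK119ub1 and 4.2 and 1.8 kb for H3K27me3. Of the other promoters the study describes for these marks, in hippocampus or neurospheres, Pax6, Neurod1 and Lef1 had both marks and Eomes lacked an island in H2AK119ub1 replicate 1. Pax6, a progenitor factor, had islands of 2.6 and 28 kb for H2AK119ub1 and 12.4 and 17 kb for H3K27me3, with 83, 964, 608 and 539 counts in that order.

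CpG content differed between the groups. CpG-rich promoters were 64.9% of those with both marks (Wilson 95% interval 61.3 to 68.4), 55.4% of those with H2AK119ub1 only (49.0 to 61.7), 36.5% of those with H3K27me3 only (32.7 to 40.5) and 45.1% of those with no island. The intervals cover counting error alone, and promoters that share an island are not independent. The order of both marks, H2AK119ub1 only and H3K27me3 only held in 10 of 10 settings. Without H2AK119ub1 replicate 2 the single-mark groups were close, at 48.4% with H2AK119ub1 only and 47.8% with H3K27me3 only. Taken the other way, 4.78% of CpG-rich and 2.17% of CpG-poor promoters had both marks, and 2.26% of CpG-rich and 3.31% of CpG-poor promoters had H3K27me3 only. The groups also differed in gene length, whose median was 39.7 kb with H2AK119ub1 only and 18.1, 17.3 and 16.6 kb with both marks, with H3K27me3 only and with no island. Neighbours of the same group were counted as well. A promoter of the same group lay within 100 kb of 188 (26.9%) of those with both marks, 192 (32.6%) of those with H3K27me3 only and 31 (13.4%) of those with H2AK119ub1 only. The groups held 699, 589 and 231 promoters, and a larger group offers more neighbours. No share expected from group size was computed, so these shares do not compare crowding between the groups. Among promoters with both marks the most that shared 1 merged region was 13.

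Islands were widest where both marks lay. The groups were formed from these same islands, so width and group are not independent and the widths are a description. At promoters with both marks the median width was 3 and 10.6 kb for H2AK119ub1 and 12.8 and 8.6 kb for H3K27me3. At promoters with H3K27me3 only it was 6 and 3.8 kb, and at those with H2AK119ub1 only 2.4 and 5.6 kb. In each of the 4 libraries, islands of that library were thus wider at promoters with both marks than at promoters with its mark alone. Islands of 10 kb or more lay at 4.01% and 53.4% of promoters with both marks for H2AK119ub1 and 61.5% and 45.4% for H3K27me3, against 0.433% and 20.3% with H2AK119ub1 only and 22.4% and 5.77% with H3K27me3 only. Which mark was wider depended on the libraries paired. H3K27me3 was wider at 94.8% and 89.0% of the promoters with both marks against H2AK119ub1 replicate 1, and at 68.5% and 46.6% against replicate 2. At each of the 4 Hox clusters the widest H3K27me3 island of either library was wider than the widest H2AK119ub1 island. The HoxC cluster lay in H3K27me3 islands of 199.6 and 176.8 kb, with H2AK119ub1 islands up to 125 kb in replicate 2, and the HoxA cluster in H3K27me3 islands of 198 and 132.8 kb, with H2AK119ub1 islands up to 105.2 kb in replicate 2.

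**Figure D3:**
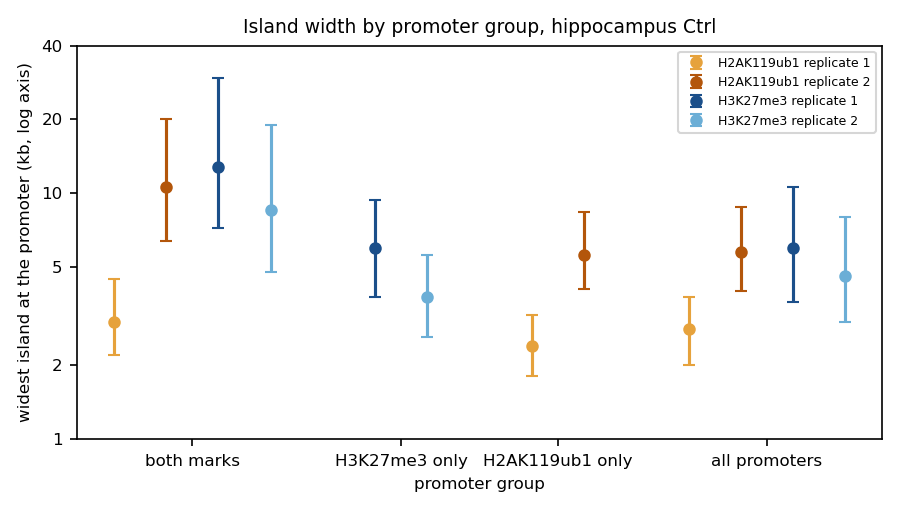
Width of the widest island at a promoter (y axis, kb, log scale) by promoter group and library (x axis), with the median and the middle 50% of promoters. In every library the median is higher at promoters with both marks than at promoters with its mark alone, and at promoters with both marks the medians run from 3 to 12.8 kb. Groups and widths come from the same islands.

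Position around the start site differed too. At promoters with both marks the start site lay inside an island at 44.8% and 90.7% for H2AK119ub1 and 87.4% and 86.7% for H3K27me3. With H2AK119ub1 only the shares were 23.4% and 61.0%, and with H3K27me3 only 63.5% and 57.6%. Islands of H2AK119ub1 alone thus reached the start site less often than the same libraries did where both marks lay. Their cover peaked downstream, at 50.2% of promoters 2 kb after the start site in replicate 1 and at 81.0% 1.4 kb after it in replicate 2. Over all promoters the H2AK119ub1 libraries also peaked downstream, 2.2 and 1.2 kb after the start site. Groups and positions come from the same islands, and 2 kb is the edge of the window that formed the groups. With H2AK119ub1 only, its mean cover over the 2 kb upstream and downstream was 33.5% and 39.2% in replicate 1 and 61.0% and 75.3% in replicate 2. H3K27me3 alone was highest 1 kb before the start site in replicate 1, at 70.6%, and 0.4 kb after it in replicate 2, at 58.7%, close to its shares at the start site itself. Where both marks lay, H2AK119ub1 was highest 1.6 and 1 kb after the start site, at 58.4% and 94.4%. H3K27me3 was highest there at 0.8 and 1 kb, at 91.3% and 91.1%. The edge of the window is a choice on a smooth scale. The nearest island base lay 1.6 to 2 kb away, just inside, at 107, 94, 195 and 112 promoters in H2AK119ub1 replicates 1 and 2 and H3K27me3 replicates 1 and 2, and 2 to 2.4 kb away, just outside, at 104, 99, 193 and 111.

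**Figure D4:**
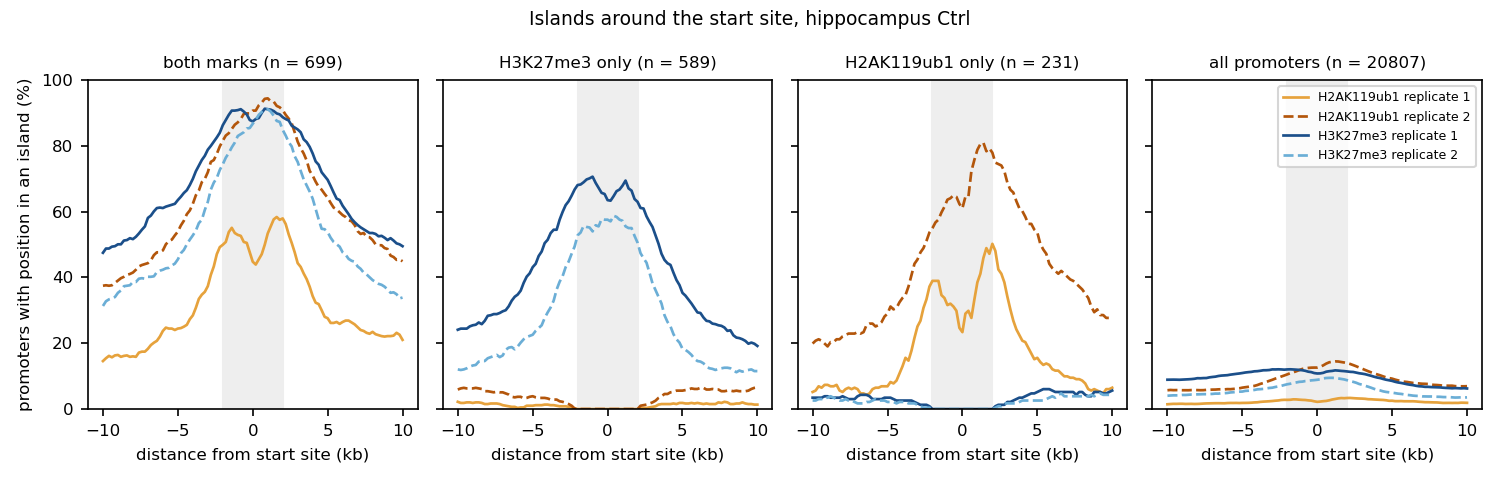
Share of promoters inside an island (y axis, percent) by distance from the start site (x axis, kb, with transcription to the right) for the promoter groups, 1 line per library. At promoters with H2AK119ub1 only both lines are lower at the start site, 23.4% and 61.0%, than downstream of it, and at promoters with both marks H2AK119ub1 replicate 1 runs below the other 3 libraries.

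Libraries that did not form the groups were read at the same promoters. In neurospheres of Ctrl mice, promoters with both marks in the hippocampus had islands at 92.8% and 63.5% for H2AK119ub1 and at 81.5% and 82.8% for H3K27me3, against 37.5% and 15.1%, and 27.3% and 28.1%, of all promoters. Promoters with H3K27me3 only had H3K27me3 in neurospheres at 74.2% and 77.2%, and also had H2AK119ub1 at 67.2% and 34.0%. Promoters with H2AK119ub1 only had H2AK119ub1 at 80.1% and 35.9% and also H3K27me3 at 41.6% and 45.5%. Both single-mark groups thus had islands of the other mark in neurospheres more often than promoters at large. All 4 neurosphere libraries called 405 (57.9%) of the promoters with both marks, 164 (27.8%) of those with H3K27me3 only and 45 (19.5%) of those with H2AK119ub1 only, against 8.01% of all. The same single-mark state was met again at 74 (12.6%) of those with H3K27me3 only, against 5.58% of all, and at 17 (7.36%) of those with H2AK119ub1 only, against 2.52%. The cells of the 2 sources differ in type as well as in culture, which cannot be told apart.

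H3K36me2, a mark of active and intergenic chromatin that KDM2B can remove, lay apart from H3K27me3 in the Ctrl hippocampus. Its islands met 2.15% and 2.0% of promoters with both marks and 1.36% and 0.679% of those with H3K27me3 only, against 4.92% and 3.97% of all. At promoters with H2AK119ub1 only the shares were 13.0% and 10.8%, higher than in any other group of the 4. In cKO hippocampi, promoters with both marks had islands at 42.3% and 99.4% for H2AK119ub1 and at 88.0% and 99.4% for H3K27me3, and promoters with H2AK119ub1 only had H2AK119ub1 at 14.7% and 81.4%. The cKO libraries differed from each other in yield, with H2AK119ub1 islands at 4.15% and 25.6% of all promoters and H3K27me3 islands at 14.7% and 27%. Among the 8 leading promoters with both marks, 8 of 8 had both marks in both neurosphere libraries of each, and 0 had H3K36me2.

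**Figure D5:**
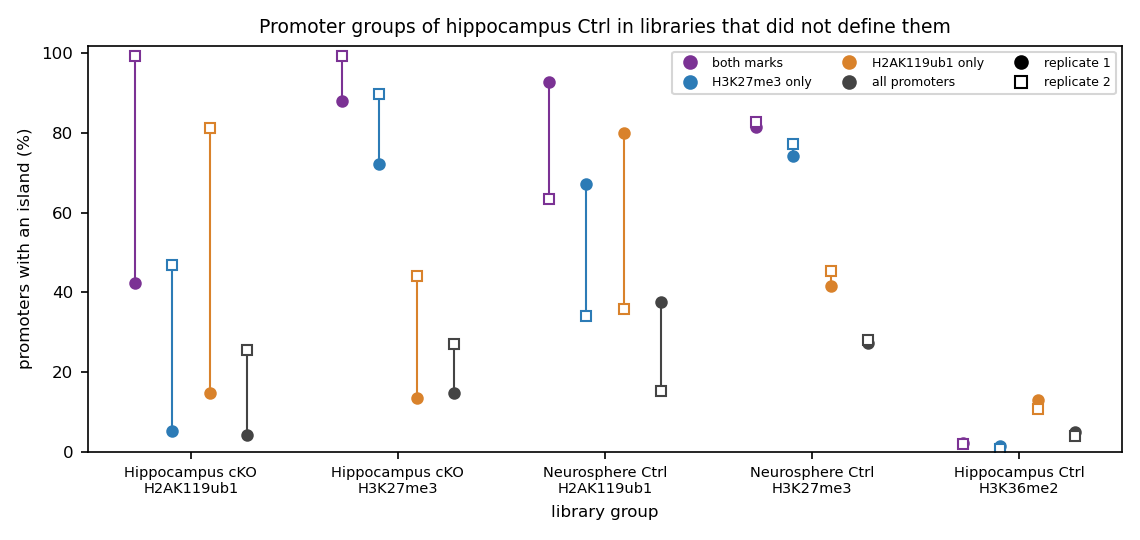
Share of promoters of each group (y axis, percent) with an island in libraries that did not form the groups (x axis), 1 point per library, with all promoters beside them. Promoters with both marks stay above all promoters for both Polycomb marks, and those with H2AK119ub1 only have the highest H3K36me2 shares, 13.0% and 10.8%.

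The balance of the marks was tested where all 4 libraries had an island. Merging overlapping islands gave 2009 such regions, of which 877 held a promoter. Counts of the islands in each region were compared with the quasi-likelihood test of edgeR with Benjamini-Hochberg adjustment at a false discovery rate of 0.05. A higher count of H2AK119ub1 was called at 156 regions (7.77%) and of H3K27me3 at 88 (4.38%), and 555 had an unadjusted p under 0.05. These counts join island length and density. Counts per kb of island, compared with limma, gave 0 calls, with 426 regions at an unadjusted p under 0.05. Regions higher in H2AK119ub1 had median island lengths of 8.2 and 19.1 kb for it and 5.9 and 3.6 kb for H3K27me3, and regions higher in H3K27me3 had 4.3 and 15.8 kb and 38.4 and 28.3 kb. The number of calls fell to 133 without H2AK119ub1 replicate 1, 142 without H3K27me3 replicate 1 and 53 without H3K27me3 replicate 2.

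Direction differed by the kind of region. Regions without a promoter had 120 of 1132 (10.6%) higher in H2AK119ub1 and 28 (2.47%) higher in H3K27me3, with a median log2 fold change, H2AK119ub1 over H3K27me3, of 0.28. Regions with a promoter had 36 of 877 (4.10%) and 60 (6.84%), with a median of −0.31. That split in calls rested on single libraries. With a library left out, the medians shrank most without H3K27me3 replicate 2, to −0.10 with a promoter and 0.13 without. Counts per kb of island gave 0 calls in either kind of region. Their median log2 difference was −0.17 with a promoter and 0.07 without. Of the 100 regions with a homeobox gene outside the Hox clusters, 0 were higher in H2AK119ub1 and 21 in H3K27me3, with a median of −0.69. The count of homeobox regions higher in H3K27me3 stayed at 21 with the size factors of DESeq2 and was 18 by the DESeq2 test. It fell to 11 without H2AK119ub1 replicate 2, to 4 without H2AK119ub1 replicate 1 and to 1 without H3K27me3 replicate 2, and was 0 by limma on counts per kb, while the median stayed below 0. Of the 4 Hox regions none was called in edgeR, and the HoxA and HoxD regions had log2 fold changes of −0.48 and −0.48 (adjusted p = 0.383 and 0.381).

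Single regions showed the same joining of length and count. Among the called regions that hold a promoter, the largest change toward H2AK119ub1 was at Gsg1l, which encodes an AMPA receptor auxiliary subunit. Its region held 449 and 1479 counts for H2AK119ub1 and 80 and 105 for H3K27me3, over islands of 18.6 and 41.8 kb and of 3 and 4.6 kb. The groups did not overlap, with a log2 fold change of 3.89 ± 0.52 (SE, edgeR adjusted p = 2.77e-08), and the log2 difference in counts per kb was 0.55. Others toward H2AK119ub1 were the regions of Snx20 and Nod2 (3.49), Aipl1 and Pimreg (3.02), Nkd1, an intracellular Wnt antagonist (2.79), and Zfpm1, a cofactor of GATA factors (2.53). Per kb of island Zfpm1 went the other way, with a log2 difference of −0.25, and its edgeR adjusted p was 0.0708 without H3K27me3 replicate 1 and 0.0742 without H3K27me3 replicate 2. Toward H3K27me3 the largest change among them was at Cplx4, a complexin of retinal ribbon synapses. It held 63 and 99 counts for H2AK119ub1 and 1169 and 674 for H3K27me3, again without overlap, and its log2 fold change was −2.52 ± 0.56 (SE, edgeR adjusted p = 0.00125). The regions of H2-T3 (−2.51), G6pc2 (−2.36), Lbx2 (−2.34) and Lmo3 (−2.27) followed. Per kb of island Lmo3 went the other way, by 0.23. The edgeR adjusted p became 0.0535 at Cplx4 and 0.126 at Lbx2 without H3K27me3 replicate 2, and 0.0669 at G6pc2 without H3K27me3 replicate 1.

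Of the promoters the study describes, Wnt7b passed the test. Its region held 188 and 549 counts for H2AK119ub1 and 105 and 130 for H3K27me3, over islands of 8.2 and 17.4 kb and of 3.6 and 4.6 kb. Counts of the marks did not overlap, and the log2 fold change was 2.21 ± 0.61 (SE, edgeR adjusted p = 0.0101), with a log2 difference per kb of 0.21. The edgeR adjusted p became 0.0660 without H2AK119ub1 replicate 1 and 0.162 without H3K27me3 replicate 1. At the others that were tested the edgeR adjusted p was 0.224 at Pax6 (log2 fold change 0.76), 0.341 at Sfrp2 (0.84), 0.386 at Lef1 (0.78), 0.401 at Neurod1 (0.74), 0.130 at the region shared by Wnt6 and Wnt10a (−0.83) and 0.598 at Wnt3 (−0.42). None of these others passed, which does not show that the marks were equal there.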

How the data were processed

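ChIP-seq islands of H2AK119ub1 and H3K27me3 from Ctrl hippocampus at P0 (2 libraries each) were compared, with cKO, neurosphere and H3K36me2 islands read at the same promoters. Per the study's methods, chromatin was cut with micrococcal nuclease, and one lysate was divided among input and the antibodies. The authors aligned reads to mm10 with Bowtie2 2.4.5, removed duplicates and called islands in each library with SICER (window 200 bp, gap 600 bp, FDR 0.01) against input. The versions of cutadapt and SICER are not given in the sources used here, and the inputs were not analysed here. The deposited files give each island with its read count, which the authors had not normalised. A place without an island has an unknown count, not 0.

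Start sites were the 5′ ends of protein-coding genes in GENCODE vM21, so genes with several promoters were judged at 1 of them. An overlap of 1 bp counted as an island at a promoter. Promoter groups and exact permutation tests over libraries were computed in Python 3.11.15 (scipy 1.17.1, numpy 2.4.6). Merged regions were tested with edgeR 4.0.16 (TMM normalisation) in R 4.3.3, with DESeq2 1.42.0 and limma 3.58.1 as alternatives. On simulated counts for this comparison over 2009 regions, edgeR recovered 72% of 200 regions changed 4-fold. Groups of promoters were formed from the calls, so their counts carry no test. Replicates were grouped by the labels. Some genes of the lists are counted but not reported by name here. The members and gene lists were chosen with earlier results of these data known.

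Named promoters were the 8 of each marked group with the highest relative density in their lowest required library, keeping 1 gene per shared island. The 5 promoter regions with the largest significant fold change in each direction, the promoters that the study describes, Kdm2b and members of the gene lists were also named. Alternatives were a 1 kb window, an overlap of 400 bp, islands of at least 1 kb, equal covered length, calls in at least 1 of 2 libraries, each library left out, another scaling or test, at least 20 counts per region, and the replicate number as a block.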

Additional observations from a re-analysis of the deposited data

Results flagged for a closer look

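Islands on the sex chromosomes lay outside the autosomal comparison and differed between replicates of a mark. On chromosome X, H2AK119ub1 replicate 1 had 331 islands and replicate 2 had 13, and H3K27me3 replicate 1 had 5412 and replicate 2 had 79. Those of H3K27me3 replicate 1 were 19.5% of its islands, covered 25.5 Mb and held 772447 counts. On chromosome Y the islands numbered 1, 0, 3 and 10 in the same order. No comparison of the marks was made there.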

How the results depend on the processing

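The calls of 4 libraries of unequal yield limit these results. Of the 184 alternative values, 146 were counted as unchanged. For differences between the marks this meant the same direction, not a near value. Covered length, for example, was counted so at 68.2 Mb without H2AK119ub1 replicate 1, against 12.1 Mb in the main setting. The CpG-rich share of called promoters kept its direction in 9 of 9 alternatives, with differences of 5.70 to 9.39 percentage points, both ends from single libraries left out. Leaving out a library in turn turned the direction of other differences (H2AK119ub1 minus H3K27me3), which ran from −44.1 to 68.2 Mb for covered length, from −8.76 to 2.95 points for called promoters, from −8.04 to 5.79 points for CpG-rich promoters, from −2.5 to 0.5 kb for island width, from −31.0 to 4.09 points for start sites inside islands and from −179 to 33.5 bp for distance. With a 1 kb window the distance differed by 33.5 bp. At equal covered length, for which covered length itself has no value, 423 promoters had both marks, 102 had H2AK119ub1 only and 2552 were mixed, and 43.5% of those with H3K27me3 only were CpG-rich. Calls in at least 1 of 2 libraries gave 2164 promoters with both marks (57.1% CpG-rich), 1831 with H3K27me3 only (32.2%) and 1883 with H2AK119ub1 only. With each library left out in turn, promoters with both marks numbered 733 to 1657 (59.0% to 64.8% CpG-rich), with H3K27me3 only 631 to 1578 (33.1% to 47.8%), with H2AK119ub1 only 265 to 1684 (48.4% to 56.2%) and mixed 1707 to 3020, and the regions called in the balance of the marks numbered 53 to 221. Those regions numbered 0 in limma on counts per kb and 51 of 2009 with the replicate block in edgeR, where homeobox regions higher in H3K27me3 numbered 3, promoter regions divided into 6 and 13, and the adjusted p was 0.0782 at Wnt7b and 0.0573 at Zfpm1. A lysate was divided among the antibodies, but nothing says that the numbers mark a lysate, and same-numbered libraries did not deviate together (correlation 0.0045 over 2009 regions); they are treated as sharing only a number. The causes of these moves were not tested. The depth of each library is not given in the sources used here, so a promoter without an island is one where none was called.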
